A study of Mus musculus with 20 samples.

Results

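The genes described here encode 10 glycoproteins and proteoglycans of the extracellular matrix other than collagens and laminins: *Fn1*, *Fbn1*, *Eln*, *Sparc*, *Postn*, *Dcn*, *Bgn*, *Lum*, *Fmod* and *Vcan*. They were chosen by name, with earlier results of these data known, and each has 1 row among the 38924 genes of the table. Fibronectin (*Fn1*) forms adhesive fibrils, fibrillin-1 (*Fbn1*) microfibrils and elastin (*Eln*) the core of elastic fibres, while osteonectin (*Sparc*) and periostin (*Postn*) are matricellular proteins that bind collagen and cells. Decorin (*Dcn*), biglycan (*Bgn*), lumican (*Lum*) and fibromodulin (*Fmod*) are small leucine-rich proteoglycans, which bind collagen fibrils. Some of them, decorin and biglycan included, also bind TGF-β. Versican (*Vcan*) is a large chondroitin sulfate proteoglycan that binds hyaluronan. In the injured liver these proteins are known as products of activated stellate cells and portal fibroblasts, whereas hepatocytes secrete large amounts of plasma fibronectin.

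RNA was measured in livers of 20 male mice, 5 in each of 4 groups. C57BL/6J wild type (WT) or TSP-1 knockout mice, bought at 5 weeks of age and acclimated for 1 week, received for 12 weeks either control diet (NDWT and NDKO) or CDAHFD, a high fat diet made of amino acids without choline, which produces steatohepatitis with fibrosis (HFWT and HFKO). The labels give 1 strain background for both genotypes, and whether the mice were littermates is not given in the sources used here. The paper names the same supplier for both and a stock number for the knockouts only. Differences between stocks therefore cannot be told apart from genotype in the comparisons of labels. The series text and the paper name different lobes of the liver as the source of the RNA. Libraries held 15641545 to 23276322 fragments assigned to genes, so that 3 fragments on a gene of 1 kb correspond to 0.129 to 0.192 FPKM (fragments scaled to gene length and library total). These limits cover counting error only. *Thbs1*, the gene of TSP-1, did not follow the labels on the control diet: it had 0.986 to 1.90 FPKM in the 5 NDKO libraries and 0.058 to 0.326 in the 5 NDWT libraries. On CDAHFD it had 3.46 to 6.10 FPKM in HFWT and 3.05 to 4.40 in HFKO. The genotype groups are therefore called by their labels, and every genotype direction below is one between labels. The hepatocyte markers *Alb*, *Ttr*, *Apoa1*, *Serpina1a* and *Hnf4a* were high in every library, with summed levels of 24820 to 44190 FPKM. In HFWT replicate 5, 2 loci that resemble ribosomal RNA, *Gm26924* and *Gm23935*, took 4.47% and 1.08% of the fragments, against at most 1.83% and 0.229% in any other library.

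On GRCm38, the table places *Fn1* (ENSMUSG00000026193.9) at chr1:71585523-71653171 on the minus strand, *Fbn1* (ENSMUSG00000027204.7) at chr2:125300594-125507993 on the minus strand, *Eln* (ENSMUSG00000029675.9) at chr5:134703781-134747241 on the minus strand, *Sparc* (ENSMUSG00000018593.6) at chr11:55394500-55420080 on the minus strand and *Postn* (ENSMUSG00000027750.10) at chr3:54361109-54391034 on the plus strand. The proteoglycan genes follow, with *Dcn* (ENSMUSG00000019929.9) at chr10:97479500-97518162 on the plus strand, *Lum* (ENSMUSG00000036446.4) at chr10:97565501-97572703 on the plus strand, *Bgn* (ENSMUSG00000031375.11) at chrX:73483602-73495933 on the plus strand, *Fmod* (ENSMUSG00000041559.7) at chr1:134037254-134048277 on the plus strand and *Vcan* (ENSMUSG00000021614.10) at chr13:89655312-89742509 on the minus strand. Only *Dcn* and *Lum* are close neighbours, 47.3 kb apart on the same strand. The bases just before the transcription start are shown for 4 genes that rose on CDAHFD and whose RefSeq start lies within 2 bases of the start in the expression table. The sequences come from RefSeq on GRCm38.p6, which gave 7 windows for 6 of the 10 genes (2 of them for *Postn*). They read 5′ to 3′ on the strand of the gene and end at the base before the start. Capitals mark matches on either strand to CAGAC, an element that SMAD factors of TGF-β signalling bind, or to TATAAA, the TATA box. The windows are chr1:134037004-134037253, plus strand, for *Fmod*, chr11:55420081-55420330, minus strand, for *Sparc*, chr3:54360857-54361106, plus strand, for *Postn*, and chrX:73483351-73483600, plus strand, for *Bgn*.
Fmod: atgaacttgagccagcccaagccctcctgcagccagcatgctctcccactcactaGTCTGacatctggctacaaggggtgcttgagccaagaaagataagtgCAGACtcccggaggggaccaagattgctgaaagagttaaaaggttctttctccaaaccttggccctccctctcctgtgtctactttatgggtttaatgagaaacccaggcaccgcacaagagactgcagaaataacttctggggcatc
Sparc: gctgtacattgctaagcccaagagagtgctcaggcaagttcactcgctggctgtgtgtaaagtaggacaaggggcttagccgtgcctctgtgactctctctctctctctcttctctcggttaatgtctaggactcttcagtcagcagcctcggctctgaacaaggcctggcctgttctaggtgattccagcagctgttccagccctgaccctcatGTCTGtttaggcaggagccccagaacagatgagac
Postn: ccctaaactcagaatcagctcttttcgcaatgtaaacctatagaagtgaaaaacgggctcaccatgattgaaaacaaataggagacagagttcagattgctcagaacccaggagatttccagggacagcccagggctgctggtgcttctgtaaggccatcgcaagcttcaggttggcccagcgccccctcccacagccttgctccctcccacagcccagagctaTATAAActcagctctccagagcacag
Bgn: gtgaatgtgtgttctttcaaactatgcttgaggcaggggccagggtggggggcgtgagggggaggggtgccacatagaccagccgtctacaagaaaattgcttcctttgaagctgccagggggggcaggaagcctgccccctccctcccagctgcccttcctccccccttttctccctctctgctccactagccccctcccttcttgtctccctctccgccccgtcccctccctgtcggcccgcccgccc
*Fmod* held CAGAC 148 bases before the start and its reverse complement at 195 bases, and *Sparc* held the reverse complement at 35 bases. The second *Postn* window, which lies further upstream, held CAGAC at 191 bases, so that 3 of the 7 windows had this motif, which 42.2% of the 32851 windows in the RefSeq table have. The TATA box stood 26 bases before the *Postn* start, in 1 of the 7 windows against 12.4% of all windows. TGANTCA, the AP-1 site, and GGAATG, the TEAD site, were in 0 of the 7 windows, against 6.75% and 12.6% of all windows. CAGAC and its reverse complement shared no bases with the TATA box in the windows shown. These matches describe letters in the windows and were not tested for binding.

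The first comparison asks how 12 weeks of CDAHFD changed these transcripts in each genotype. Of the 10 genes, 9 passed the expression filter (FPKM above 0.5 in at least 5 libraries), and *Vcan* did not. In WT livers 8 of the 9 were called higher on CDAHFD and 0 lower, where a call needs a limma FDR (the Benjamini-Hochberg adjusted p over the 14524 genes tested) under 0.05 and an absolute log2FC above 0.58. The same 8 were called higher in livers labelled TSP-1 null, and *Fn1* was the exception in both. Rises were common on the FPKM scale: 44.1% of all genes tested were called higher in WT and 41.9% in TSP-1 null livers. The excess of rises over falls depended on scaling. In WT livers 6412 genes were called higher and 671 lower. With median of ratios scaling, which centres the typical gene at no change, these counts were 3299 and 2242. In TSP-1 null livers 6088 were called higher and 581 lower, but 3225 and 1980 with that scaling. For the same 8 genes all 5 CDAHFD libraries lay above all 5 control diet libraries, which 50.5% of all genes did in WT and 52.7% in TSP-1 null livers. *Fbn1* was above 0.5 FPKM in 0 of the 10 control diet livers and passed the filter only through the CDAHFD livers, so its call as higher was largely fixed by the filter. The other 8 passed in the control diet livers alone, and 7 of them were called higher in both genotypes, against 37.9% in WT and 35.9% in TSP-1 null livers of the 12117 genes that passed in that way. Over these 8 genes the median log2FC was 2.39 for WT and 2.21 for TSP-1 null livers, against 0.44 and 0.42 over the 12117 genes. Leaving out any 1 liver kept both counts at 8. Within a diet the group means of the 2 labels differed by less than the larger SD, except for *Dcn* on both diets, *Bgn* on the control diet, and *Lum* and *Fn1* on CDAHFD. Fold changes below are on the scale of log2(FPKM + 0.1), which understates those of low genes. Values in the text follow replicates 1 to 5 of each group, and ± is the SD over 5 livers.

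**Figure D1:**
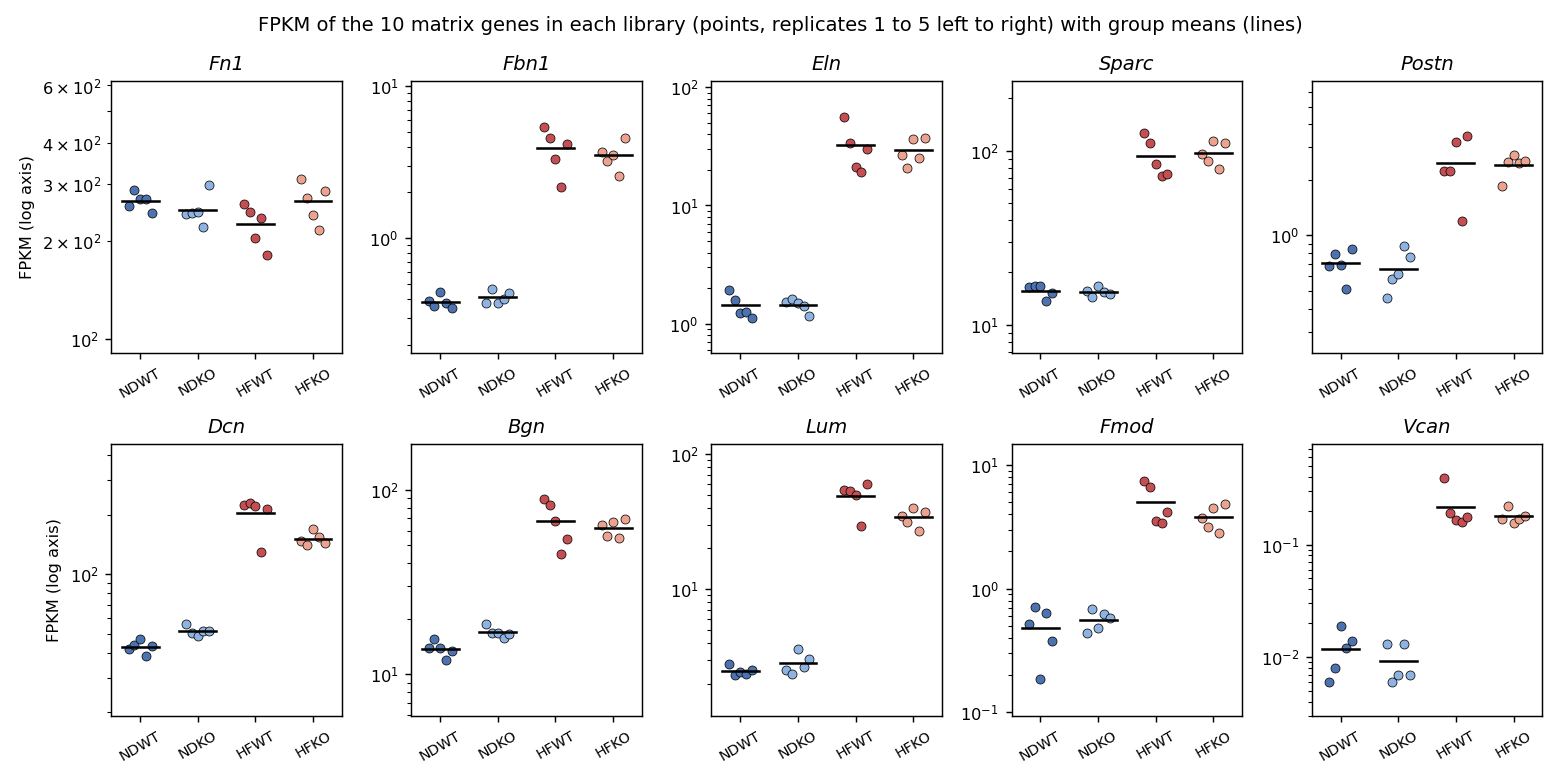
FPKM of each gene on a log axis, 1 point per library (replicates 1 to 5 from left to right) with a line at the group mean. In 9 panels the 10 CDAHFD libraries sit above all 10 control diet libraries, *Vcan* included, whereas the 4 groups of *Fn1* overlap between 181 and 309.5 FPKM.

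*Fn1*, fibronectin, was the most abundant of the 10 transcripts per length in every group and the only one of the 9 tested that did not rise. Its FPKM was 256, 286, 268, 269 and 243 in the NDWT livers against 243, 244, 245, 221 and 297 in the NDKO livers on the control diet, and 259, 246, 205, 235 and 181 in the HFWT livers against 309.5, 271, 240.4, 216 and 285 in the HFKO livers on CDAHFD. All 4 groups overlapped. Group means were 264.5 ± 16.0 FPKM for NDWT, 249.7 ± 28.1 for NDKO, 225 ± 31.9 for HFWT and 264 ± 36.7 for HFKO, and no neighbouring means in this order, from HFWT through NDKO and HFKO to NDWT, differed by more than the larger SD. In WT livers *Fn1* was 0.846 of the control diet level, a difference that passed the FDR but not the fold threshold (log2FC −0.24, SE 0.11, FDR 0.0465). In TSP-1 null livers it was 1.06 of the control level (log2FC 0.08, SE 0.11, FDR 0.520). The size of the change in WT livers and its direction in TSP-1 null livers depended on how libraries are scaled. With median of ratios scaling, which centres the typical gene at no change, *Fn1* was called lower in WT livers (log2FC −0.80, FDR 7.28e-07). In TSP-1 null livers its log2FC turned to −0.46 with that scaling (FDR 0.000498). In WT livers it was negative in all 33 settings, from −0.80 to −0.16. Relative to the median of all genes its log2FC was −0.77 on the WT side and −0.42 among TSP-1 null livers. Between 25986 and 56805 fragments per library stood behind these values, so counting error was small beside the spread between livers.

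Both genes of the elastic fibre rose. *Eln*, the elastin gene, had FPKM of 1.91, 1.60, 1.24, 1.26 and 1.13 in the NDWT livers against 1.54, 1.64, 1.51, 1.41 and 1.17 in the NDKO livers on the control diet, and 56.3, 33.7, 21.1, 19.3 and 30.2 in the HFWT livers against 26.6, 20.6, 36.7, 25.3 and 37.4 in the HFKO livers on CDAHFD. The lowest CDAHFD liver, at 19.3, was far above the highest control liver, at 1.91. *Eln* rose 19.9-fold in WT (log2FC 4.31, SE 0.23, FDR 8.29e-12) and 18.6-fold in TSP-1 null livers (log2FC 4.22, SE 0.23, FDR 1.57e-11), the highest log2FC of the 9 genes, although in WT livers within its error of that of *Lum*. It also varied most between HFWT livers among the 9, with an SD of 46.1% of the mean, and HFWT replicate 1 stood highest. *Fbn1*, whose product fibrillin-1 forms the microfibrils that elastin is laid down on and that hold latent TGF-β, had FPKM of 0.386, 0.361, 0.445, 0.375 and 0.351 in the NDWT livers against 0.376, 0.465, 0.375, 0.402 and 0.440 in the NDKO livers on the control diet, and 5.39, 4.57, 3.32, 2.16 and 4.18 in the HFWT livers against 3.71, 3.22, 3.50, 2.55 and 4.56 in the HFKO livers on CDAHFD. The diets did not overlap, and HFWT replicate 4 was the lowest CDAHFD liver. *Fbn1* rose 7.98-fold in WT (log2FC 3.00, SE 0.19, FDR 4.86e-11) and 6.95-fold in TSP-1 null livers (log2FC 2.80, SE 0.19, FDR 1.62e-10). *Fbn1* lies on chromosome 2, 7.17 Mb from *Thbs1*.

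The matricellular genes rose as well. *Sparc*, whose product binds collagen and calcium, had FPKM of 16.5, 16.7, 16.6, 13.7 and 15.2 in the NDWT livers against 15.6, 14.5, 16.6, 15.3 and 15.0 in the NDKO livers on the control diet, and 126, 112, 84.1, 71.8 and 74.1 in the HFWT livers against 96.3, 87.5, 114, 78.6 and 111 in the HFKO livers on CDAHFD. Control diet livers spanned 13.7 to 16.7 and CDAHFD livers 71.8 to 126. *Sparc* rose 5.78-fold in WT (log2FC 2.53, SE 0.13, FDR 7.09e-12) and 6.24-fold in TSP-1 null livers (log2FC 2.64, SE 0.13, FDR 6.02e-12). *Postn*, whose product periostin binds integrins and collagen, was expressed at a low level, with FPKM of 0.686, 0.788, 0.689, 0.513 and 0.845 in the NDWT livers against 0.458, 0.579, 0.615, 0.879 and 0.764 in the NDKO livers on the control diet, and 2.23, 2.25, 3.21, 1.19 and 3.44 in the HFWT livers against 1.86, 2.498, 2.73, 2.47 and 2.54 in the HFKO livers on CDAHFD. The diets did not overlap, but HFWT replicate 4, at 1.19, came close to the highest control liver, at 0.879. *Postn* rose 3.04-fold in WT (log2FC 1.60, SE 0.22, FDR 2.31e-06) and 3.36-fold in TSP-1 null livers (log2FC 1.75, SE 0.22, FDR 8.71e-07). In WT livers this was the smallest rise among the 8 genes called.

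All 4 small leucine-rich proteoglycans rose. *Dcn* was the most abundant of them on either diet, and its FPKM was 42.0, 43.8, 46.9, 38.4 and 43.1 in the NDWT livers against 55.9, 50.5, 48.8, 51.8 and 51.6 in the NDKO livers on the control diet, and 225, 228, 222, 129 and 214 in the HFWT livers against 148, 140.1, 169, 154 and 144 in the HFKO livers on CDAHFD. In 4 of the 5 HFWT livers *Dcn* lay between 214 and 228 FPKM, while replicate 4 had 129, still above every control diet liver. *Dcn* rose 4.65-fold in WT (log2FC 2.22, SE 0.12, FDR 6.70e-12) and 2.91-fold in TSP-1 null livers (log2FC 1.54, SE 0.12, FDR 1.00e-09). *Bgn*, on the X chromosome, encodes biglycan, a close relative of decorin, and its FPKM was 13.9, 15.6, 13.8, 11.9 and 13.4 in the NDWT livers against 18.8, 16.8, 16.8, 15.7 and 16.6 in the NDKO livers on the control diet, and 88.8, 82.5, 67.5, 44.7 and 54.0 in the HFWT livers against 64.2, 56.4, 66.7, 54.8 and 69.3 in the HFKO livers on CDAHFD. No CDAHFD liver was below 44.7 and no control diet liver above 18.8. *Bgn* rose 4.75-fold in WT (log2FC 2.25, SE 0.14, FDR 5.37e-11) and 3.65-fold in TSP-1 null livers (log2FC 1.87, SE 0.14, FDR 8.31e-10). Lumican and fibromodulin carry keratan sulfate chains and bind overlapping sites on collagen fibrils. *Lum* had FPKM of 2.82, 2.31, 2.46, 2.36 and 2.54 in the NDWT livers against 2.54, 2.38, 3.63, 2.68 and 3.05 in the NDKO livers on the control diet, and 53.8, 53.2, 49.5, 29.3 and 59.4 in the HFWT livers against 34.5, 31.1, 40.0, 26.8 and 37.1 in the HFKO livers on CDAHFD. The diets were far apart, with 3.63 FPKM in the highest control diet liver and 26.8 in the lowest CDAHFD liver. *Lum* rose 18.4-fold in WT (log2FC 4.20, SE 0.16, FDR 1.11e-13) and 11.5-fold in TSP-1 null livers (log2FC 3.52, SE 0.16, FDR 1.61e-12). *Fmod* had FPKM of 0.520, 0.707, 0.187, 0.635 and 0.379 in the NDWT livers against 0.440, 0.679, 0.485, 0.624 and 0.584 in the NDKO livers on the control diet, and 7.42, 6.66, 3.55, 3.40 and 4.15 in the HFWT livers against 3.71, 3.15, 4.47, 2.82 and 4.84 in the HFKO livers on CDAHFD. HFWT replicates 1 and 2 were the highest, and the diets did not overlap. *Fmod* rose 8.86-fold in WT (log2FC 3.15, SE 0.26, FDR 2.71e-09) and 5.83-fold in TSP-1 null livers (log2FC 2.54, SE 0.26, FDR 5.81e-08). On the control diet *Fmod* rested on 11 to 51 fragments per library, and its SD in NDWT was 42.8% of the mean.

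*Vcan* was the scarcest of the 10 and was not in the main fit. Its FPKM was 0.006, 0.008, 0.019, 0.012 and 0.014 in the NDWT livers against 0.013, 0.006, 0.007, 0.013 and 0.007 in the NDKO livers on the control diet, and 0.393, 0.191, 0.164, 0.159 and 0.176 in the HFWT livers against 0.169, 0.221, 0.154, 0.168 and 0.181 in the HFKO livers on CDAHFD. The control diet libraries held 2 to 5 *Vcan* fragments each, at or near the limit of 3 fragments, and the CDAHFD libraries held 40 to 102. The diets did not overlap, and HFWT replicate 1 held 102, against at most 54 in any other liver. In a fit without the expression filter *Vcan* was called higher in WT (log2FC 1.46, SE 0.15, FDR 8.66e-08) and in TSP-1 null livers (log2FC 1.35, SE 0.15, FDR 2.74e-07). These log2FC understate the change, because the 0.1 FPKM added before taking logs exceeds every control diet value. Between the labels its log2FC in that fit was −0.03 on the control diet and −0.14 on CDAHFD, and neither was called.

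**Figure D2:**
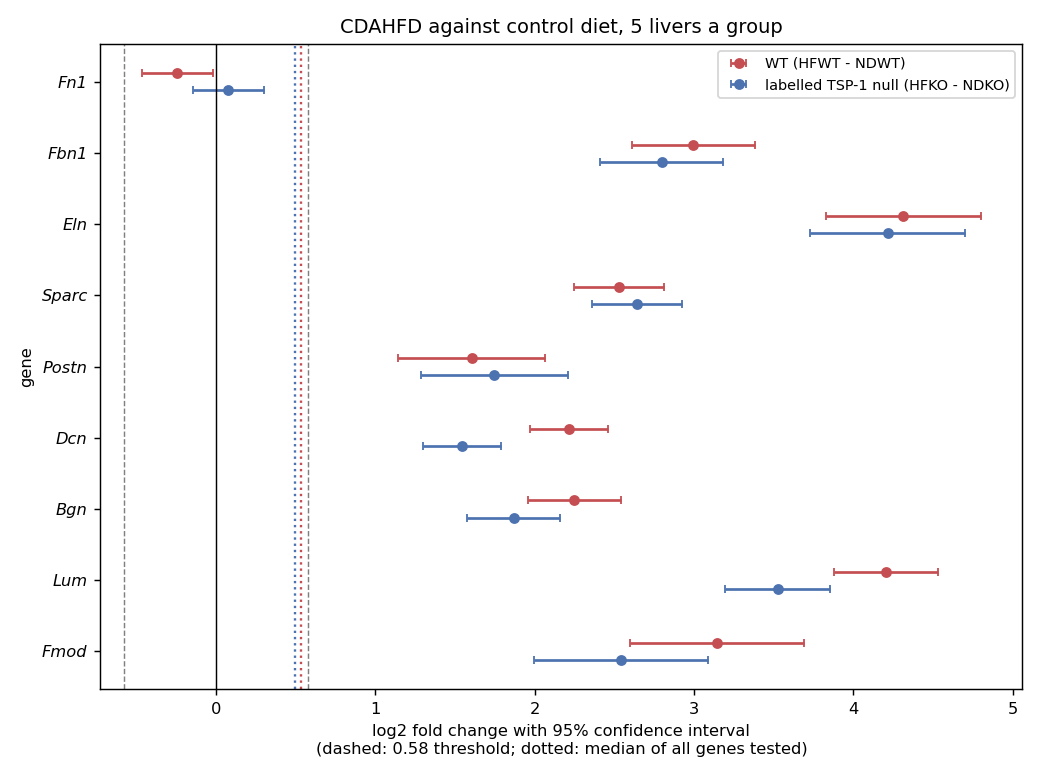
Log2FC of CDAHFD against control diet for the 9 genes tested, with the 95% confidence interval from limma, in WT (red) and in livers labelled TSP-1 null (blue). Intervals of 8 genes lie to the right of the 0.58 threshold (dashed) and of the median of all genes (dotted), and *Fn1* lies near 0, left of those medians.

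The makeup of the group differed between the diets. The summed level of the 10 genes was 342 ± 18.1 FPKM for NDWT, 339.7 ± 28.0 for NDKO, 683 ± 115 for HFWT and 648 ± 57.0 for HFKO. Without *Fn1* the sums were 77.8 ± 5.37, 90.0 ± 3.21, 457 ± 101 and 384 ± 40.4 FPKM. *Fn1* made up 76.0% to 79.6% of the sum in the NDWT livers and 71.3% to 76.9% in NDKO, but 29.0% to 43.9% in HFWT and 35.5% to 44.95% in HFKO. Shares of this kind do not depend on the scaling between libraries. The next largest share was that of *Dcn*, with means of 12.5% for NDWT, 15.3% for NDKO, 29.8% for HFWT and 23.4% for HFKO. *Sparc* went from 4.60% in NDWT to 13.6% in HFWT, and *Lum* from 0.732% to 7.19%. *Postn* had a share of 0.206% in NDWT and of 0.365% in HFWT.

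**Figure D3:**
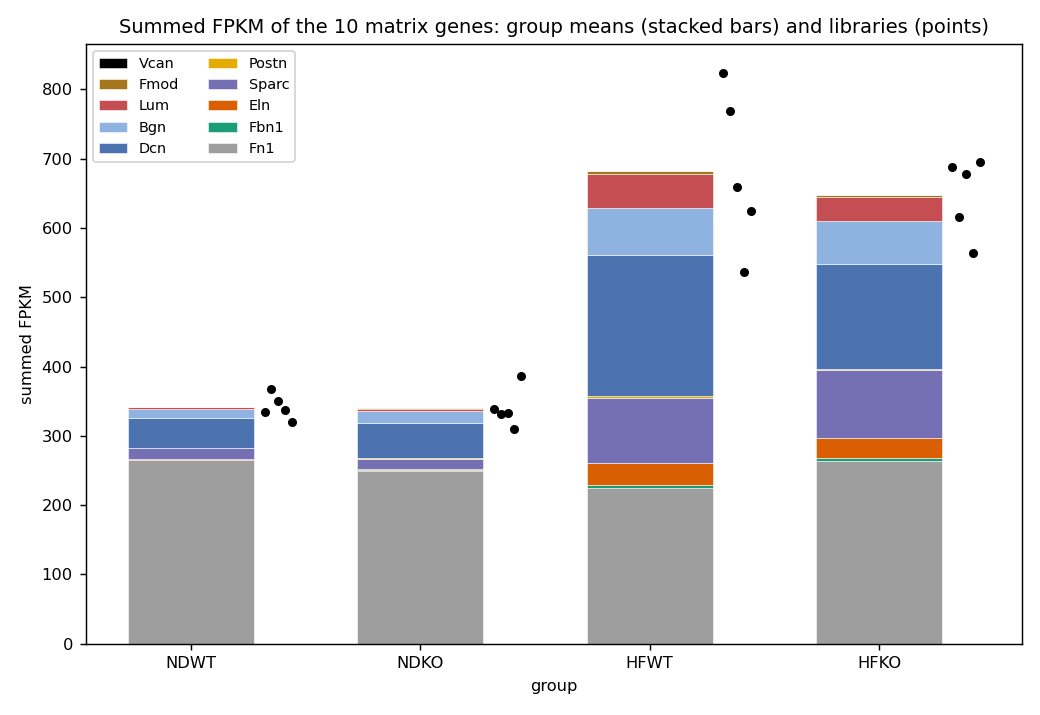
Summed FPKM of the 10 genes, with the group mean of each gene stacked in a bar and the sum of each library as a black point. The grey part of *Fn1* is of similar height in all 4 groups, 225 to 264.5 FPKM, while the part above it, mainly *Sparc*, *Dcn*, *Bgn*, *Lum* and *Eln*, is larger in both CDAHFD groups.

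The second comparison sets livers labelled TSP-1 null against WT livers on the control diet, where *Thbs1* goes against the labels. Of the 9 genes 0 were called in either direction by limma, against 4.77% of all genes tested, and 2 had an unadjusted p under 0.05. These were *Dcn* and *Bgn*. The share of all genes with such a p was not computed, but 1899 of the 14524 passed the limma FDR alone, without the fold threshold. *Dcn* was 42.9 ± 3.09 FPKM in NDWT and 51.7 ± 2.62 in NDKO (log2FC 0.27, SE 0.12, FDR 0.138), and *Bgn* was 13.7 ± 1.34 and 16.9 ± 1.11 FPKM (log2FC 0.30, SE 0.14, FDR 0.166). For both, all 5 NDKO livers lay above all 5 NDWT livers, a separation in this direction that 2.33% of all genes had. The other 7 genes overlapped between the groups, with log2FC from −0.10 for *Postn* to 0.25 for *Fmod*. The *Fmod* value was 0.019 without NDWT replicate 3, the library with 0.187 FPKM on 11 fragments. The 95% confidence interval of the log2FC was −0.31 to 0.13 for *Fn1*, −0.31 to 0.25 for *Sparc* and −0.45 to 0.52 for *Eln*, so changes of the size seen with diet in *Sparc* and *Eln* lie outside them.

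On CDAHFD, 0 of the 9 genes were called between the labels by limma, against 0.496% of all genes, and 3 had an unadjusted p under 0.05: *Dcn*, *Lum* and *Fn1*. The share of all genes with such a p was not computed here either. *Dcn* was 204 ± 42.0 FPKM in HFWT and 151 ± 11.5 in HFKO (log2FC −0.40, SE 0.12, FDR 0.0959). *Lum* was 49.0 ± 11.6 FPKM in HFWT and 33.9 ± 5.14 in HFKO (log2FC −0.50, SE 0.16, FDR 0.115). *Fn1* was 225 ± 31.9 FPKM in HFWT and 264 ± 36.7 in HFKO (log2FC 0.23, SE 0.11, FDR 0.268). In both *Dcn* and *Lum* every HFWT liver but replicate 4 lay above every HFKO liver, and replicate 4, with 129 FPKM of *Dcn* and 29.3 of *Lum*, lay within or below the HFKO range. Without that library *Lum* was called lower in HFKO (log2FC −0.68, FDR 0.00665), and *Dcn* passed the FDR but not the fold threshold (log2FC −0.56, FDR 7.22e-05). HFWT replicate 4 was the lowest of its group for 9 of the 10 genes, *Fn1* excepted. HFWT replicate 1 was the highest for 7. The summed stellate cell markers in HFWT replicate 4 were 61.0 FPKM, against 101 to 126 in the other HFWT livers, and its summed myofibroblast markers were 129 FPKM, against 148 to 268. The part of these marker levels in the result was not tested. For the other 6 genes the log2FC ranged from −0.35 (*Fmod*, 95% confidence interval −0.90 to 0.19) to 0.08 (*Sparc*, −0.20 to 0.36).

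The interaction tests whether the diet effect differed between the labels, which is the same difference as that between the genotype effects of the 2 diets. By limma 0 of the 9 genes were called, against 0.647% of all genes, and 3 had an unadjusted p under 0.05. For this p too the share of all genes was not computed. *Dcn* had an interaction of log2FC −0.68, SE 0.17, FDR 0.0565: its rise on CDAHFD was 4.65-fold in WT and 2.91-fold in TSP-1 null livers. This FDR lay close to the threshold, and *Dcn* was called with median of ratios scaling (FDR 0.0470), with quantile normalization (FDR 0.0469), with limma voom on recovered fragments (FDR 0.0414) and without HFWT replicate 4 (FDR 0.000364). Over 31 alternatives its FDR ranged from 0.000364 to 0.112. *Lum*, its neighbour on chromosome 10, had a log2FC of the same size with a larger SE (log2FC −0.68, SE 0.22, FDR 0.147), and among the alternatives run was called only without HFWT replicate 4 (log2FC −0.86, FDR 0.0279). *Fn1* had the opposite sign (log2FC 0.32, SE 0.15, FDR 0.317). The interaction of *Bgn* was −0.38 (95% confidence interval −0.79 to 0.03) and that of *Fmod* −0.60 (−1.38 to 0.17), which was −0.37 without NDWT replicate 3. The interaction of *Thbs1* itself was log2FC −2.66, SE 0.33, FDR 0.00230. The interaction and the comparisons above share the same control and CDAHFD libraries.

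**Figure D4:**
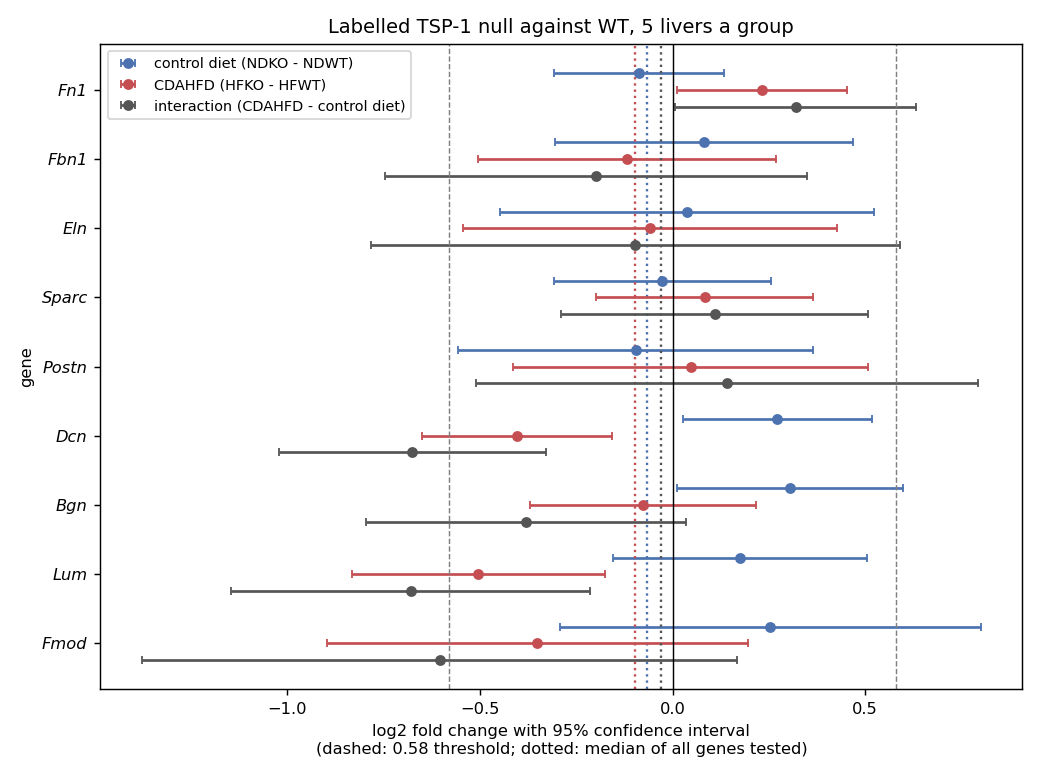
Log2FC of livers labelled TSP-1 null against WT on the control diet (blue) and on CDAHFD (red), and their difference, the interaction (grey), with 95% confidence intervals from limma. *Dcn* and *Lum* have the lowest interaction estimates, both at −0.68, and no gene was called in any of the 3.

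It was also asked whether livers high in 1 of these transcripts were high in others. Over the 10 CDAHFD libraries, 45 pairs of genes were correlated on log2(FPKM + 0.1), with two-sided permutation tests adjusted by Benjamini-Hochberg. For Pearson's r 12 pairs passed an FDR of 0.05, *Dcn* with *Lum* among them. For Spearman's rho only *Fbn1* with *Eln*, *Fbn1* with *Fmod*, *Eln* with *Fmod* and *Bgn* with *Sparc* passed. Without the 2 libraries farthest from the median of the first gene, r fell in all 12 pairs but *Fbn1* with *Fmod*. The lowest was 0.457, for *Eln* with *Bgn*. *Bgn* and *Sparc* had r = 0.889 (permutation p = 0.00049, FDR 0.0209) and Spearman's rho = 0.867 (permutation p = 0.002, FDR 0.027), with r = 0.799 without the 2 libraries farthest from the median of *Bgn*. *Eln* and *Fmod* had r = 0.850 (permutation p = 0.00124, FDR 0.0209) and rho = 0.879 (permutation p = 0.00132, FDR 0.027), with r = 0.742 without 2 libraries. *Fbn1* and *Fmod* had r = 0.835 (permutation p = 0.00304, FDR 0.0228) and rho = 0.927 (permutation p = 0.00036, FDR 0.0162), with r = 0.865 without 2 libraries. For *Dcn* and *Lum* no pooled correlation is given, because the livers fell into 4 HFWT livers at 214 to 228 FPKM and 6 others at 129 to 169. *Lum* was also highest in those 4 livers, at 49.5 to 59.4 FPKM, against 26.8 to 40.0 in the 6 others. The libraries of both labels were pooled, and the share of pairs of other genes that pass was not computed. Whether 12 of 45 is more than other genes have is therefore not known. The correlations depend on a library and on scaling. Without HFWT replicate 1, 0 of 45 pairs passed, although *Bgn* and *Sparc* still had r = 0.844, and without HFWT replicate 4, 6 pairs passed. With median of ratios scaling 2 pairs passed, *Bgn* with *Sparc* and *Dcn* with *Lum*. *Fn1* was in none of the 12 pairs, but without HFWT replicate 4 it passed with *Postn*, with a negative r of −0.841 (permutation FDR 0.03664).

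**Figure D5:**
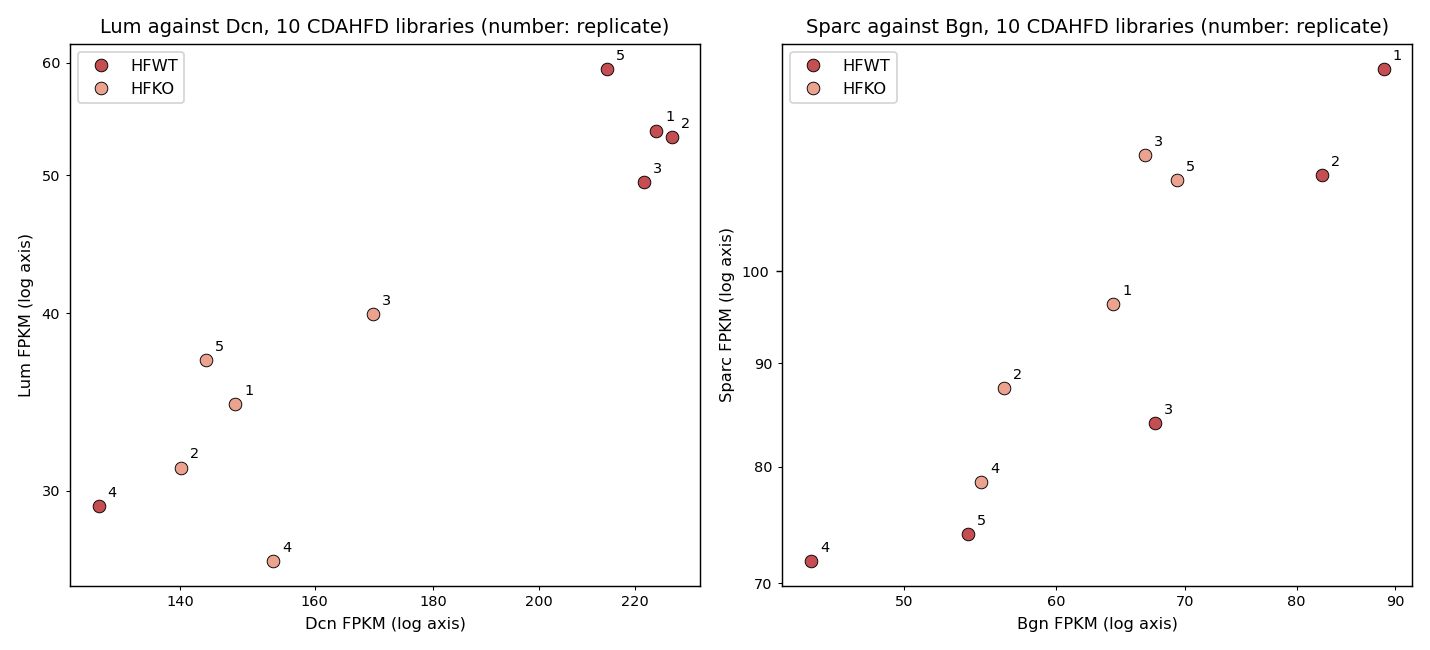
FPKM of *Lum* against *Dcn* (left) and of *Sparc* against *Bgn* (right) in the 10 CDAHFD libraries, both axes logarithmic, with the replicate number beside each point. On the left, 4 HFWT livers stand apart at the upper right and HFWT replicate 4 lies at the lower left beside the HFKO livers. On the right, HFWT livers hold both ends of the range and the HFKO livers lie between them.

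The most similar genes in the whole table were read from the deviations of each library from its group mean, over 20 libraries, as a description. For *Dcn* these were *Ednra* (r = 0.916), *Bmp5* (0.905) and *Fbln5* (0.894). For *Lum* they were *Gucy1a3* (0.870), *Tfpi* (0.841) and *Hgf* (0.826). *Bgn* went with *Prelp* (0.942), *Pcdhga9* (0.908) and *Sod3* (0.904), and *Fbn1* with *Reln* (0.929), *Tln2* (0.911) and *Col4a2* (0.874). *Eln* went with *Ptrf* (0.907), *Emilin1* (0.90) and *Islr* (0.895). *Sparc* was the only one whose closest gene was among the 10, *Bgn*, and it was followed by *Olfml3* (0.887) and *Col6a1* (0.879). *Fmod* went with *Aebp1* (0.814), *Paqr4* (0.789) and *2700081O15Rik* (0.753). *Vcan* went with *Tnc* (0.799), *Ubqln2* (0.791) and *Pde4dip* (0.772), and *Postn* with *Taf13* (0.827), *Hgf* (0.813) and *Ednra* (0.786). *Fn1* had a different set, *Lrp1* (0.865), *Ganab* (0.835) and *Polr2a* (0.809). Values of 1 library share its depth and its tissue makeup.

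Genes that work with these 10 were counted in 6 lists of 81 genes, 59 of which were tested. Of the 59, 44 were called higher on CDAHFD in WT livers and 46 in TSP-1 null livers, and 0 lower in either, beside the 44.1% and 41.9% of all genes. Of the 59, 12 passed the expression filter only through the CDAHFD livers, which largely fixed their direction: *Fbn2*, *Fbln1*, *Fbln2*, *Mfap2*, *Mfap4*, *Ogn*, *Ecm2*, *Tnc*, *Matn2*, *Itgb8*, *Xylt1* and *Chst11*. Of the other 47, 32 were called higher in WT and 35 in TSP-1 null livers (68.1% and 74.5%), beside 37.9% and 35.9% of the genes that passed in control diet livers. In the elastic fibre and microfibril list 12 of 12 were called higher in both genotypes, and 5 of the 12 had passed the filter only through the CDAHFD livers. The other 7 had a median log2FC of 2.08 for WT and 1.99 for TSP-1 null livers. *Fbn2*, another fibrillin, rose from 0.0042 ± 0.00249 FPKM in NDWT to 1.05 ± 0.366 in HFWT (log2FC 3.41, SE 0.26, FDR 9.55e-10), where the log2FC depends on the 0.1 FPKM added. *Mfap2*, which binds fibrillin in microfibrils, rose from 0.123 ± 0.0585 to 2.49 ± 1.07 FPKM (log2FC 3.48, SE 0.32, FDR 9.21e-09). Of the other small leucine-rich proteoglycans 6 of 11 were tested, and 4 were called higher in WT and 3 in TSP-1 null livers. Without *Ogn* and *Ecm2*, which passed the filter only through the CDAHFD livers, 2 of 4 were called higher in each genotype. *Prelp*, which lies 116 kb from *Fmod* on chromosome 1, went from 14.5 ± 2.65 to 48.4 ± 17.2 FPKM (log2FC 1.68, SE 0.20, FDR 3.84e-07), and *Podn*, podocan, from 0.864 ± 0.196 to 3.76 ± 1.49 (log2FC 1.92, SE 0.22, FDR 2.83e-07). *Kera* and *Epyc*, the next genes after *Lum* on chromosome 10, were listed at 0 in all 20 libraries.

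The lists around versican and *Sparc* rose in part. Of all genes that passed the filter in control diet livers 37.9% were called higher in WT and 35.9% in TSP-1 null livers. Of the hyaluronan-binding and basement membrane proteoglycans 4 of 12 were tested, and 3 were called higher in WT and 4 in TSP-1 null livers. *Cd44*, the hyaluronan receptor, was 2.39 ± 0.510 FPKM in NDWT and 9.60 ± 0.763 in HFWT (log2FC 1.98, SE 0.18, FDR 8.33e-09). *Agrn*, a heparan sulfate proteoglycan of basement membranes, was 6.46 ± 0.670 and 17.7 ± 4.73 FPKM (log2FC 1.401, SE 0.15, FDR 8.51e-08). The 3 hyaluronan synthase genes and the relatives of versican, *Acan*, *Ncan* and *Bcan*, were at most at 0.148 FPKM and were not tested. Among SPARC family and matricellular genes 9 of 13 were called higher in WT and 10 in TSP-1 null livers. Among the 11 that passed in control diet livers the counts were 7 and 8. *Spp1*, osteopontin, which also marks cholangiocytes, went from 13.6 ± 1.27 to 379 ± 86.1 FPKM (log2FC 4.76, SE 0.16, FDR 2.39e-14), and *Tnc*, tenascin-C, from 0.0994 ± 0.00673 to 2.23 ± 0.750 (log2FC 3.49, SE 0.19, FDR 9.76e-12). Of the integrins that bind fibronectin 6 of 8 were called higher in both genotypes while *Fn1* was not. Without *Itgb8*, which passed the filter only through the CDAHFD livers, 5 of 7 were called higher in each. *Itga8* rose with a log2FC of 2.65 and *Itgb8* with 2.48 in WT livers (FDR 3.31e-10 and 3.72e-08). For the enzymes that build glycosaminoglycan chains the WT count was 10 of 16 and the TSP-1 null count 11. Among the 14 that passed in control diet livers the counts were 8 and 9. The TSP-1 null count of 11 fell to 7 with median of ratios scaling and to 5 with quantile normalization. Over all genes tested the number called higher in TSP-1 null livers fell as well, from 6088 to 3225 and 2690. *Xylt1*, which starts the chains, went from 0.0648 ± 0.0496 to 1.38 ± 0.369 FPKM (log2FC 3.19, SE 0.27, FDR 4.04e-09), and *Chst11*, a chondroitin sulfotransferase, from 0.0486 ± 0.0280 to 1.66 ± 0.252 (log2FC 3.58, SE 0.21, FDR 2.16e-11).

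Between the labels few of the 59 list genes were called, 4 on the control diet and 1 on CDAHFD, beside 4.77% and 0.496% of all genes. On the control diet *Cd44* was lower in NDKO (log2FC −1.11, SE 0.18, FDR 0.000648), as was *Chad*, chondroadherin (log2FC −0.79, SE 0.16, FDR 0.00359). *Smoc2*, a SPARC relative (log2FC 0.63, SE 0.14, FDR 0.00743), and *Itgb3*, integrin β3 (log2FC 0.69, SE 0.17, FDR 0.0121), were higher, and neither was called with a pseudocount of 1. The *Smoc2* call was also lost without NDWT replicate 3, NDWT replicate 4 or NDKO replicate 1. On CDAHFD *Chad* was 5.07 ± 0.625 FPKM in HFWT and 3.11 ± 0.753 in HFKO (log2FC −0.71, SE 0.16, FDR 0.0374), a call that was lost under 4 alternatives and without any 1 of 6 livers.

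Markers of many cell types moved with diet, beside 44.1% of all genes called higher in WT and 41.9% in TSP-1 null livers. The summed level of 7 myofibroblast markers was 7.96 to 10.97 FPKM for NDWT, 7.10 to 10.1 for NDKO, 129 to 268 for HFWT and 109 to 217 for HFKO, and all 7 were called higher in both genotypes, although *Timp1* and *Loxl2* passed the filter only through the CDAHFD livers. The 7 stellate cell markers summed to 38.2 to 51.8, 51.8 to 55.6, 61.0 to 126 and 87.9 to 99.9 FPKM in the same order, with 7 called higher in WT and 6 in TSP-1 null livers. The 5 portal fibroblast markers summed to 9.67 to 12.2, 9.38 to 15.9, 18.6 to 28.8 and 17.5 to 21.7 FPKM, with 3 called higher and 1 lower in each genotype. The 5 cholangiocyte markers, *Spp1* among them, rose from 12.4 to 18.0 FPKM over the control diet livers to 181 to 488 over the CDAHFD livers. Most of this sum was *Spp1*, with means of 379 FPKM in HFWT and 252 in HFKO. The next highest, *Epcam*, had means of 15.0 and 10.6 FPKM, up from 0.531 in NDWT and 0.487 in NDKO. The 5 hepatocyte markers had 1 gene called lower in WT and 0 in TSP-1 null livers. Lists of other cells rose in part. All 5 lymphocyte markers were called higher in both genotypes, 2 of them having passed the filter only through the CDAHFD livers. Of 5 macrophage markers 3 were called higher in WT and 4 in TSP-1 null livers, with 1 lower in each. Among the 4 that passed in control diet livers 2 and 3 were higher. Of 4 mesothelium markers tested 4 and 2 were higher, but of the 2 that passed in control diet livers 2 and 0. Both smooth muscle markers tested were higher in each genotype, and *Myh11* passed only through the CDAHFD livers. Of 5 sinusoidal endothelium markers 1 and 2 were higher (20.0% and 40.0%). Of all genes that passed in control diet livers 37.9% and 35.9% were. No marker of these lists was at 0 in every library. In whole liver, more cells of a type and more RNA per cell cannot be told apart, and the part of these marker levels in the rises of the 10 genes was not tested.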

How the data were processed

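RNA of 20 mouse livers was sequenced by the authors after poly(A) selection with a stranded kit. Their processing notes name STAR 2.5.2 and featureCounts of Subread 1.5.1, and the paper names QuickRNASeq. FPKM were deposited as 1 table with 3 decimals. The notes name GRCh38, but the coordinates are those of GRCm38: of 37607 identifiers found in GENCODE M21, 99.8% overlapped their gene there. Samples were grouped by title, 5 mice a group.

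Fragments were recovered from FPKM, gene length and library total, and at least 99.99% of the values checked came out whole within 0.1. No libraries were copies of each other, the lowest chi-square per degree of freedom over 40 pairs within groups being 13.0. Group means were fitted to log2(FPKM + 0.1) for 14524 genes in 1 fit of all libraries (limma 3.58.1 in R 4.3.3, eBayes with trend, two-sided tests, Benjamini-Hochberg FDR over all genes, CDAHFD against control diet within genotype, label against label within diet, and their interaction). A fold change of low genes is understated by the 0.1 added. In fragments simulated from the NDWT means for CDAHFD against control diet in WT (12768 genes fitted), 99 of 99 genes changed 2-fold and 100 of 100 changed 4-fold were called, and 7 unchanged genes were called. The simulation gave every gene the same fixed spread between livers and changed only genes above a minimum of expected fragments. It therefore does not measure power in these livers, where the HFWT SD was 20.6% of the mean for *Dcn* and 46.1% for *Eln*. Alternatives used other pseudocounts, filters and scalings, voom, a replicate block and leaving out each mouse. Libraries sharing a replicate number did not deviate together (correlations of −0.133 to 0.081), so the numbers were not used as pairs.

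The 10 genes, the lists, the markers and the motifs were chosen with earlier results of these data known. The text names all 10, *Thbs1*, from each list the 2 called genes that rose most in WT and every gene called between labels, and the 3 genes most similar to a member. Neighbours of *Lum* and *Fmod*, the rRNA-like loci and genes not detected were named after their values were seen. Plots and tables were made with Python 3.11.15, pandas 2.3.3 and matplotlib 3.10.9.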

Additional observations from a re-analysis of the deposited data

Results flagged for a closer look

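Within the 132 groups of 5 libraries examined (the 10 genes, the named list genes and *Thbs1*), 6 had 1 library whose distance from the rest exceeded the 95% limit of Dixon's test, where chance flags about 1 in 20 groups. Of these, 2 were among the 40 groups of the 10 genes. *Dcn* in HFWT replicate 4 was 129 FPKM (129.08), against 214 to 228 in the other HFWT livers, and this library also held the lowest *Fbn1*, *Eln*, *Bgn*, *Fmod*, *Vcan*, *Sparc*, *Postn* and *Lum* of its group. *Vcan* in HFWT replicate 1 was 0.393 FPKM, against at most 0.191 in the others. The remaining libraries were HFKO replicate 5 for *Fbn2* at 2.02 FPKM (2.018), NDWT replicate 2 for *Tgfbi* at 22.4 FPKM (22.352), HFKO replicate 2 for *Omd* at 2.55 FPKM (2.547) and HFKO replicate 5 for *Thbs1* at 4.40 FPKM (4.398). The genotype effect on *Thbs1* differed between the diets, with an interaction log2FC of −2.66 (SE 0.33, limma FDR 0.0023): NDKO lay above NDWT in all 5 livers, while HFKO and HFWT overlapped.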

How the results depend on the processing

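Both counts of 8 genes called higher on CDAHFD stayed at 8 or 9 under all alternatives run, and were 8 with each mouse left out in turn. The replicate block gave 8 in WT, 8 in TSP-1 null livers, and 0 for both genotype comparisons and the interaction, and it changed no other call of the 10 genes. The count of genes called for the interaction went from 0 to 1 (*Dcn*) with median of ratios scaling, with quantile normalization and with limma voom on recovered fragments. With 1 mouse left out it ranged from 0 to 2, and the count between labels on CDAHFD from 0 to 1. The higher counts came without HFWT replicate 4. The 12 correlated pairs became 2 with median of ratios scaling, 0 without HFWT replicate 1 and 6 without HFWT replicate 4, in a range of 0 to 15. These correlation alternatives were chosen after the data were seen. The cause of these changes was not tested. Median of ratios scaling turned *Fn1* in TSP-1 null livers to −0.46, *Sparc* on the control diet to 0.05, and *Eln* and *Bgn* on CDAHFD to 0.04 and 0.03. Quantile normalization turned *Sparc* on the control diet to 0.03 and *Fbn1* on CDAHFD to 0.01. With 1 mouse left out, differences between labels on the control diet ranged from −0.04 to 0.14 for *Eln* and −0.19 to 0.01 for *Postn*. On CDAHFD they ranged from −0.31 to 0.01 for *Fbn1*, −0.21 to 0.17 for *Eln*, −0.21 to 0.03 for *Bgn*, −0.0027 to 0.20 for *Sparc* and −0.18 to 0.18 for *Postn*, and for the interaction from −0.25 to 0.13 for *Eln* and −0.08 to 0.28 for *Postn*. None of these turned values was called. With 5 livers a group, values of *Vcan* and of *Fmod* on the control diet are limited by fragments, and FPKM shares cannot show a change in total RNA.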
